A study of Mus musculus with 6 samples.

Results

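The solute carriers are membrane proteins that move small molecules across the plasma membrane or the membranes of organelles, and their genes carry Slc or Slco symbols grouped into numbered families. Of 45193 genes in the count table, 385 had such a symbol once 9 antisense and pseudogene symbols were left out. The 191 genes described here were chosen by their level, at least 1 CPM (the read count scaled to the library total) in at least 3 of the 6 libraries, and they came from 45 families. Since the level chose them, the levels themselves are a description. A gene that is abundant in one genotype only could enter through that genotype alone, which was so for 3 genes, Slc15a2 and Slc16a5 through the knockout and Slco2b1 through WT. Such a gene had to differ, so these 3 are described by their levels and fold changes, and their calls, though counted in totals over all 191 genes and over substrate groups, support nothing. The other 188 reached 1 CPM in at least 1 library of each genotype. The choice by symbol also took in 3 genes that do not encode transporters: Slc9a3r1 and Slc9a3r2, for scaffold proteins that bind a sodium-proton exchanger, and Slc4a1ap, for an adaptor protein of an anion exchanger.

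Polyadenylated RNA was sequenced from bone marrow-derived macrophages that had been cultured for 6 days with L929-conditioned medium, which supplies the growth factor CSF-1. The first genotype, called KO here, was labelled RXRafl/flLysMCre RXRb-/- on a C57BL/6J background: loxP-flanked alleles of the retinoid X receptor gene Rxra, Cre recombinase from the lysozyme M locus, which is active in myeloid cells, and no functional Rxrb. The other was WT C57BL/6J, for which the labels name no Cre, and each genotype had 3 libraries. All cells were moved to serum-free medium and then given the solvent DMSO for 3 hours, with no other agent named. The labels call the replicates biological without naming animals, so the p-values speak only of the spread among these 6 libraries, part of which may be technical.

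Retinoid X receptors are nuclear receptors that pair with the receptors for oxysterols, fatty acids, retinoic acid and vitamin D, and several of these pairs are known to control genes of lipid and nutrient handling. Macrophages take up dead cells, red cells and lipoproteins, and solute carriers then pass on the iron, heme, sugars, nucleosides and amino acids released in their lysosomes. Amino acid carriers at the surface often work as exchangers, whereas many ion, phosphate and vitamin carriers are driven by the sodium gradient.

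Levels below are CPM scaled by TMM factors, which adjust for differences in RNA composition. Total counts were 17250051 to 25091019 in KO and 7880320 to 14957253 in WT, so depth moved with the genotype. Rxrb stood at 7.97 to 11.7 CPM in KO against 64.7 to 68.3 CPM in WT, whereas whole-gene counts of Rxra, at 104 to 113 CPM in KO and 96.9 to 110 CPM in WT, do not check the removal of its loxP-flanked part. Lyz2, the locus that carries Cre, stood at 23 to 35 CPM in KO against 14727 to 15887 CPM in WT. Effects of the loss of the receptors, of the loss of Lyz2 and of the presence of Cre cannot be told apart in any result here. None of 9 macrophage markers was at 0 reads throughout. Their summed level was 7634 to 8893 CPM in KO and 22302 to 22773 CPM in WT, a gap made by Lyz2. Within this list Csf1r (log2 fold change 0.39), Itgam (0.65) and Cd14 (1.08) rose. Lyz2 (-9.07), Mrc1 (-0.46) and Fcgr1 (-0.37) fell, and 3 did not pass. Of all tested genes, 19.4% were called (edgeR adjusted p under 0.05), 9.77% higher and 9.61% lower in KO. Summed levels of the other markers were 1057 to 1182 CPM in KO and 1132 to 1271 CPM in WT for 10 neutrophil genes, and 132 to 165 CPM in KO and 144 to 191 CPM in WT for 6 dendritic cell genes, nearly all of it Bst2. Within the neutrophil list Csf3r rose (log2 fold change 0.75, edgeR adjusted p = 0.00154). Elane (-1.10), Mpo (-0.88) and Ngp (-0.27) fell, and 6 did not pass, beside the same 19.4% of all tested genes called. The summed levels of stromal genes were 4.20 to 10.1 CPM in KO and 7.67 to 9.91 CPM in WT, and those of lymphoid genes were 2.38 to 3.89 CPM in KO and 5.6 to 7.56 CPM in WT. For mast cell and basophil genes they were 2.56 to 4.39 CPM in KO and 2.80 to 3.00 CPM in WT, with Tpsb2 at 0 reads. Erythroid genes summed to 0.317 to 0.705 CPM in KO and 1.69 to 2.35 CPM in WT, with Hbb-bs, Hbb-bt and Hba-a1 at 0 reads. The part of other cell types in the results was not tested. In such bulk samples, fewer cells of a type and less RNA per cell cannot be told apart.

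Among the 188 solute carrier genes that reached 1 CPM in both genotypes, 29 rose and 13 fell in KO relative to WT and 146 did not pass the test (edgeR quasi-likelihood, Benjamini-Hochberg adjusted p under 0.05 over 12011 genes). That is 22.3% of the 188, beside 19.4% of all tested genes called, 9.77% higher and 9.61% lower in KO. With the 3 genes that entered through one genotype, the totals over all 191 were 31 and 14. Without KO replicate 1 the count among the 188 was 23 in place of 42, and without WT replicate 1 it was 27. With every library thinned to the smallest total, 44 of 187 changed, and 40 of these were among the 42. The median log2 fold change was 0.06 over the 188 and -0.00476 over all tested genes. KO and WT libraries did not overlap for 81 of the 188, 51 with KO above and 30 with KO below, beside 36.9% of all tested genes. Most changes were modest: 2 of the genes that rose and 1 of those that fell passed a 2-fold change, and among all tested genes 3.24% did. Genes that rose had a median log2 fold change of 0.47 and those that fell one of -0.62. The 146 genes that did not pass lay between -0.42 and 0.69.

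**Figure D1:**
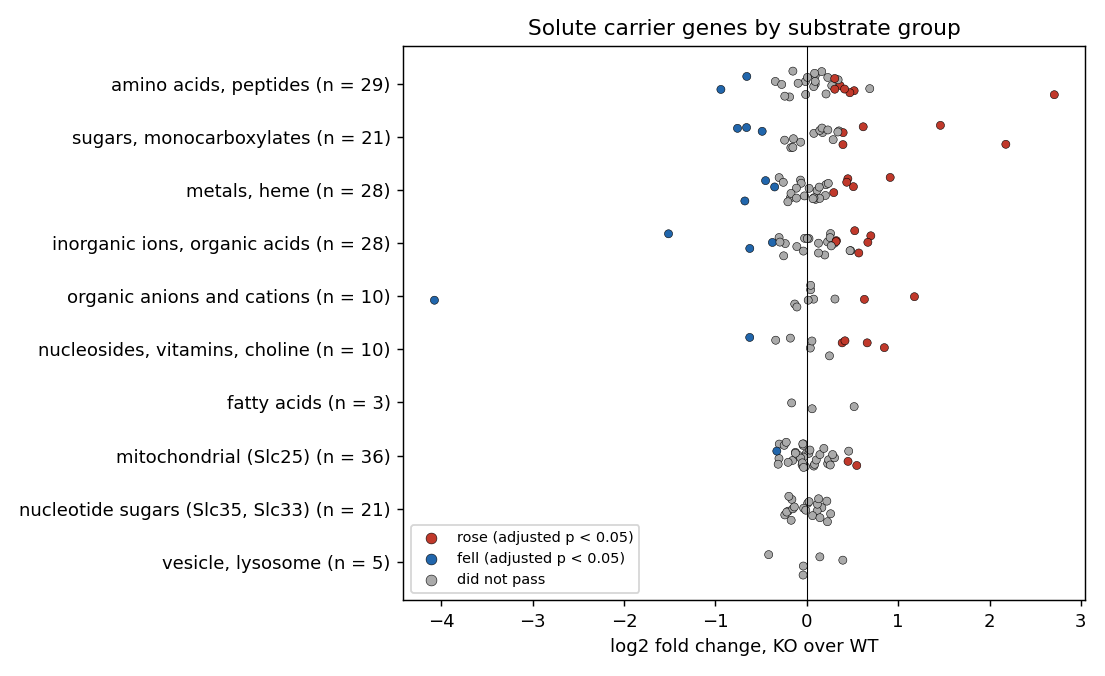
Log2 fold change, KO over WT, of the 191 solute carrier genes, one point per gene, in rows by substrate group with the number of genes in each (red, rose, blue, fell, grey, did not pass the edgeR threshold). Most points lie within 1 unit of 0, Slco2b1 lies far to the left at -4.08, and the rows of nucleotide sugar, fatty acid and vesicle carriers hold grey points only.

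**Figure D2:**
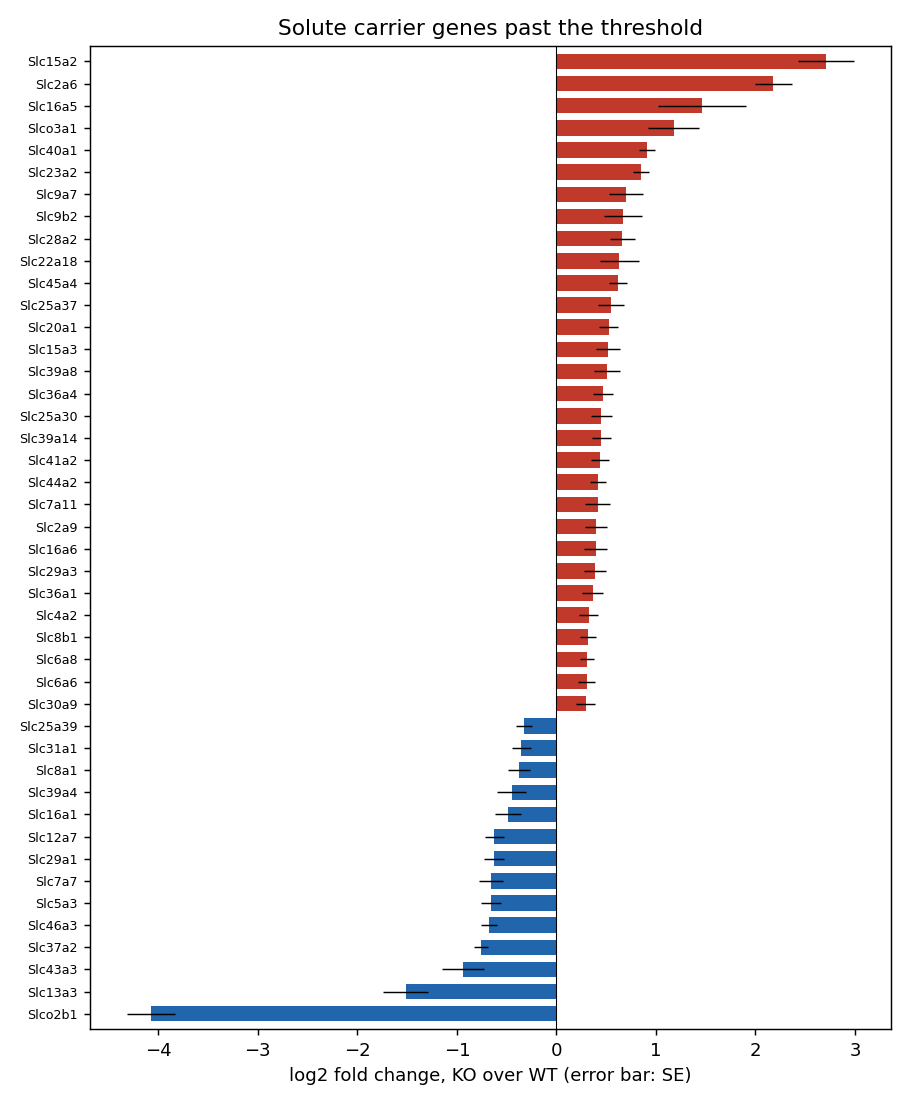
Log2 fold change, KO over WT, of 44 of the 45 solute carrier genes past the threshold, as bars with the SE from edgeR's F test, ordered from the highest at the top to the lowest. There are 30 bars to the right, led by Slc15a2 at 2.71, and 14 to the left, ending with Slco2b1 at -4.08, and the bars of Slc15a2, Slc16a5 and Slco2b1, which entered through one genotype, are a description.

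The gene furthest from WT was Slco2b1 (ENSMUSG00000030737, chromosome 7, 99657804 to 99711340 in GRCm38), which encodes an uptake transporter of organic anions such as steroid sulfates. It had 0.755, 0.555 and 0.380 CPM in the KO libraries, against 9.95, 9.25 and 9.46 CPM in the WT libraries. These values rest on 13, 14 and 7 reads in KO and 96, 71 and 145 reads in WT, and the log2 fold change was -4.08 (SE 0.243). Every KO library lay far below every WT library, but the gene is among the chosen ones through its WT level alone. About 7.91% of its exon bases overlap Gm15635 on the other strand, which had 2 reads in all libraries together.

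Its relative Slco3a1, which encodes another organic anion transporter, moved the other way. It had 6.39, 6.22 and 6.84 CPM in KO and 4.14, 1.43 and 2.80 CPM in WT (log2 fold change 1.18, SE 0.258, adjusted p = 0.0065). The KO libraries sat close together and above a WT group whose own values spread widely. The most abundant gene per kilobase of the organic ion group was Slco4a1, a carrier of thyroid hormones and other anions, at 58.4 ± 3.96 CPM in KO and 62.9 ± 3.86 CPM in WT (SD, n = 3 each), with groups that overlap (adjusted p = 0.447). Slc22a18, an organic cation transporter-like gene, rose (log2 fold change 0.63, adjusted p = 0.0388). Its call was lost with any library left out except WT replicate 1. The remaining 6 genes of this group did not pass. Of its 10 genes 30% were called, beside 19.4% of all tested genes, and that counts Slco2b1, whose call supports nothing.

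Of the 3 genes of family 15, which move peptides with protons, Slc15a2 and Slc15a3 stood higher in KO, and Slc15a4 did not pass (log2 fold change 0.09). Slc15a2, the high-affinity peptide transporter gene, had 4.18, 4.44 and 4.12 CPM in KO and 0.518, 0.781 and 0.652 CPM in WT, from 72, 112 and 76 reads in KO and 5, 6 and 10 reads in WT. Its log2 fold change was 2.71 (SE 0.281), with no WT library reaching 1 CPM. Slc15a3, a lysosomal carrier of histidine and peptides, had 284, 250 and 312 CPM in KO and 180, 235 and 176 CPM in WT (log2 fold change 0.52, adjusted p = 0.00806). WT replicate 2 came close to the lowest KO library, and the call was lost without WT replicate 1. The Slc15a3 value is uncertain, since 28.1% of its exon bases overlap Tmem132a on the other strand and strand use in the counting is not given in the sources used here.

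Sugar carriers held the largest rise among genes that reached 1 CPM in both genotypes. Slc2a6 (ENSMUSG00000036067, chromosome 2, 27021363 to 27027998), a glucose transporter-family gene whose protein sits on intracellular membranes in mouse macrophages, had 37.6, 32.7 and 35.2 CPM in KO and 5.39, 6.38 and 10.6 CPM in WT. The log2 fold change was 2.18 (SE 0.188, adjusted p = 6.13e-06), with a wide gap between the groups. Slc2a6 lies 0.648 Mb from Rxra, one of the modified loci, and the part of that position in the result was not tested. The other 3 solute carrier genes within 10 Mb of Rxra, Slc27a4, Slc25a25 and Slc2a8, did not pass. Neither did the 3 within 10 Mb of Rxrb, Slc39a7, Slc37a1 and Slc9a3r2. These 6 are named for their position. Slc39a7 lies 0.00013 Mb from Rxrb. Its value is uncertain, since 80.7% of its exon bases overlap Gm20427 on the same strand, which had 8 reads in all. Of the rest of family 2, Slc2a9, a urate carrier, rose (0.40, adjusted p = 0.0196, lost with 3 of the libraries left out in turn). Slc2a1, the basal glucose transporter gene, chosen after its values were seen, stood at 90.9 CPM in KO and 82.4 CPM in WT (adjusted p = 0.302).

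Slc37a2, which encodes a glucose-6-phosphate exchanger of the endoplasmic reticulum abundant in macrophages, was the highest of the sugar group per kilobase and fell. It had 423, 416 and 421 CPM in KO and 694, 738 and 699 CPM in WT (log2 fold change -0.76, SE 0.0736, adjusted p = 1.65e-05). Slc5a3, the sodium-coupled myo-inositol transporter gene, fell as well, with 23.3, 25.2 and 27.4 CPM in KO and 39.4, 41.4 and 39.3 CPM in WT (-0.66, adjusted p = 0.00055). For both genes the KO and WT libraries lay well apart. Slc45a4, a proton-coupled sugar transporter gene, rose to 97.8 ± 5.99 CPM in KO, against 63.6 ± 4.43 CPM in WT (SD, n = 3 each; log2 fold change 0.62, adjusted p = 0.000401). In all, 5 of the 21 genes for sugars and monocarboxylates rose, 3 fell and 13 did not pass. That is 38.1% called, beside 19.4% of all tested genes, and it counts Slc16a5, whose call supports nothing.

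Among the monocarboxylate carriers of family 16, Slc16a1, which moves lactate and pyruvate with protons, fell to 21.2 ± 2.11 CPM in KO, against 30.1 ± 4.59 CPM in WT (-0.49, adjusted p = 0.0206). WT replicate 3, at 24.8 CPM, came near the highest KO library, at 23.4 CPM, and the call was lost without KO replicate 1 or WT replicate 1 or 2. Slc16a5 had 23, 35 and 34 reads in KO and 8, 1 and 9 reads in WT, or 1.34, 1.39 and 1.84 CPM in KO against 0.829, 0.130 and 0.587 CPM in WT. It stood above 1 CPM in KO alone. Slc16a6, chosen after its values were seen, rose (0.40, adjusted p = 0.0312), but 21.5% of its exon bases overlap Amz2 on the other strand, and its call was lost in 3 of the fits without 1 library. The other 5 genes of family 16 did not pass.

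**Figure D3:**
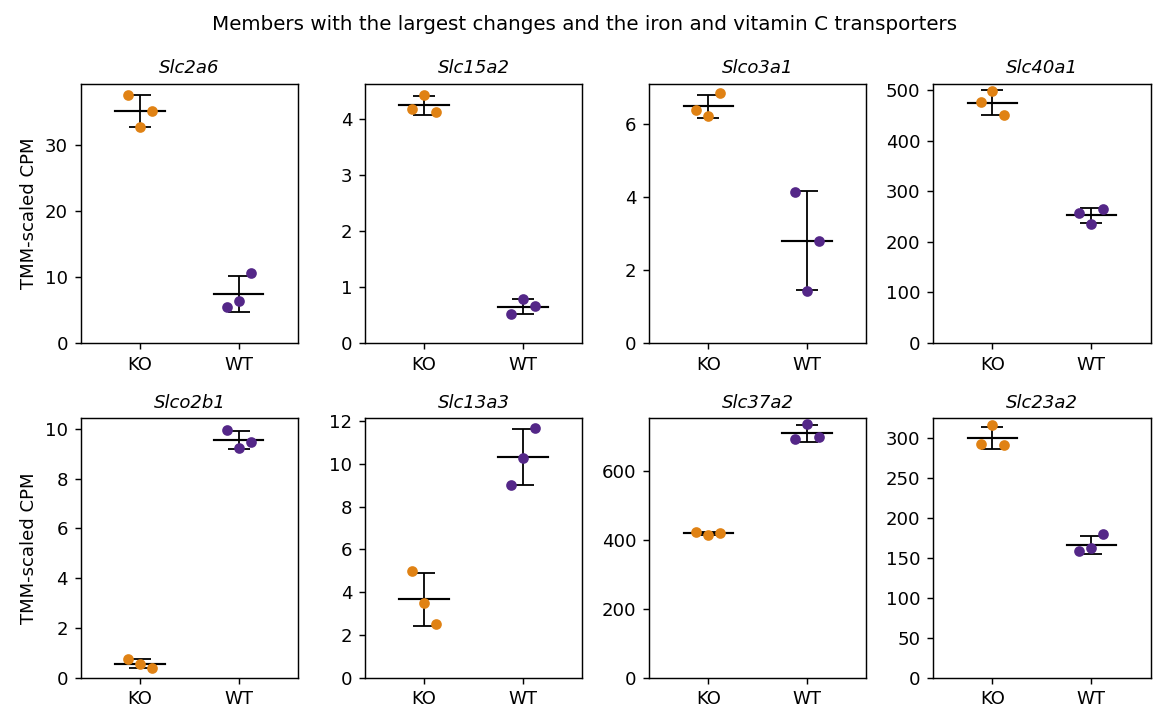
TMM-scaled CPM in each library of 8 solute carrier genes, KO on the left and WT on the right of each panel, with the mean as a line and the SD as an error bar. KO points lie above all WT points for Slc2a6, Slc15a2, Slco3a1, Slc40a1 and Slc23a2, and below them for Slco2b1, Slc13a3 and Slc37a2.

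Genes of the metal and heme group moved in both directions, with 5 of 28 genes higher, 3 lower and 20 that did not pass (28.6% called, beside 19.4% of all tested genes). Slc40a1 encodes ferroportin, the iron exporter through which macrophages return iron from red cells to the blood. It had 477, 498 and 450 CPM in KO and 257, 235 and 264 CPM in WT (log2 fold change 0.91, SE 0.0811, adjusted p = 7.83e-06). No KO library came near a WT library. Slc39a14, a zinc and iron importer gene, rose (33.7, 32.5 and 32.3 CPM in KO, against 24.8, 23.2 and 24.1 CPM in WT, 0.45, adjusted p = 0.00589). So did Slc41a2, a magnesium transporter gene (0.44, adjusted p = 0.00385). Slc39a8, which imports zinc and manganese and was chosen after its values were seen, rose too (0.51, adjusted p = 0.0141), though not without KO replicate 1 or 2.

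The genes of the metal and heme group that fell were Slc46a3, Slc39a4 and Slc31a1. Slc46a3, a lysosomal carrier placed in this group by its family number alone, had 50.8, 51.5 and 50.5 CPM in KO and 77.7, 82.8 and 83.9 CPM in WT (-0.68, adjusted p = 0.000101). The copper importer gene Slc31a1 was at 63.0 ± 5.21 CPM in KO and 80.3 ± 7.11 CPM in WT (-0.35, adjusted p = 0.0233), and lost its call in 4 of the 6 fits without 1 library. Slc39a4, a zinc importer gene, was at 8.43 ± 0.399 CPM in KO and 11.5 ± 1.53 CPM in WT (-0.45, adjusted p = 0.0454), and lost its call in 5 of them and with DESeq2. Slc11a1, for the divalent metal transporter of the phagosome that limits the growth of ingested microbes, was the most abundant solute carrier gene of all per kilobase. It had 821, 828 and 722 CPM in KO and 711, 682 and 799 CPM in WT, groups that overlap (0.11, adjusted p = 0.41). Slc48a1, which moves heme out of the lysosome and was chosen after its values were seen, stood at 412 CPM in KO and 445 CPM in WT (adjusted p = 0.575).

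Mitochondrial carriers of family 25, the largest family here, mostly did not pass: 2 of 36 rose, 1 fell and 33 did not pass. That is 8.33% called, beside 19.4% of all tested genes. Slc25a37, or mitoferrin, which brings iron into mitochondria, had 64.9, 71.6 and 66.6 CPM in KO and 45.8, 36.5 and 55.6 CPM in WT (0.55, adjusted p = 0.00935), but did not pass without WT replicate 1. Slc25a30, a mitochondrial carrier of inorganic anions, rose too (0.45, adjusted p = 0.00932), again not without WT replicate 1. Slc25a39, needed for glutathione in mitochondria, fell, with 139, 136 and 136 CPM in KO and 169, 186 and 163 CPM in WT (-0.33, adjusted p = 0.0116). That call was lost without KO replicate 1. The ADP/ATP carrier gene Slc25a5, the highest of the family per kilobase, had 202, 212 and 167 CPM in KO and 279, 214 and 228 CPM in WT (-0.31, adjusted p = 0.0742). It passed without WT replicate 2 (adjusted p = 0.0412) and with no filter on low counts (adjusted p = 0.019), and 27.9% of its 75-base stretches also occur in transcripts of other genes.

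Carriers of nucleosides, vitamins and choline included 4 of 10 genes that rose and 1 that fell (50% called, beside 19.4% of all tested genes). Slc23a2, the sodium-coupled vitamin C transporter gene and the most abundant of this group per kilobase, had 292, 316 and 291 CPM in KO and 158, 162 and 179 CPM in WT (0.85, SE 0.0821, adjusted p = 1.6e-05). The lowest KO library was well above the highest WT library. Slc28a2, a sodium-driven importer of purine nucleosides, rose (25.5 ± 0.631 CPM in KO, 15.9 ± 2.73 CPM in WT, SD, n = 3 each, 0.66, adjusted p = 0.00303). Its value is uncertain because 27.7% of its 75-base stretches are shared with Gm14085. Slc44a2, a choline transporter-like gene, rose as well (0.42, adjusted p = 0.00269). Slc29a1, the equilibrative nucleoside transporter gene of the cell surface, fell (69.4, 67.1 and 57.9 CPM in KO, against 92.1, 96.6 and 111 CPM in WT, -0.62, adjusted p = 0.000851). Its lysosomal relative Slc29a3, chosen after its values were seen, rose (0.39, adjusted p = 0.0288), a call lost in 4 of the 6 fits without 1 library.

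Among carriers of inorganic ions and organic acids, 6 of 28 rose, 3 fell and 19 did not pass (32.1% called, beside 19.4% of all tested genes). Slc13a3, the sodium-coupled carrier of succinate and other dicarboxylates, fell most, with 5.00, 3.49 and 2.50 CPM in KO and 9.01, 10.3 and 11.7 CPM in WT (log2 fold change -1.51, SE 0.224, adjusted p = 0.000469). All KO libraries lay under all WT libraries. The sodium-phosphate cotransporter gene Slc20a1 rose (68.7 ± 2.52 CPM in KO, 47.6 ± 4.63 CPM in WT, 0.52, adjusted p = 0.00185). Slc9a7, a sodium-proton exchanger gene of the Golgi, rose to 15.7 ± 2.17 CPM in KO, against 9.45 ± 2.13 CPM in WT (0.70, adjusted p = 0.0116), and lost the call without KO replicate 1 or WT replicate 1. The scaffold gene Slc9a3r1, the highest of the group per kilobase, was at 143 ± 0.420 CPM in KO and 131 ± 13 CPM in WT (adjusted p = 0.332).

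Slc12a7, a potassium-chloride cotransporter gene, fell, with 86.4, 87.6 and 79.7 CPM in KO and 121, 124 and 146 CPM in WT (-0.62, adjusted p = 0.000472). The KO and WT libraries lay well apart. The plasma membrane sodium-calcium exchanger gene Slc8a1 fell (25 ± 0.629 CPM in KO, 32.3 ± 3.32 CPM in WT, -0.38, adjusted p = 0.0262, lost in 4 of the 6 fits without 1 library). Its mitochondrial relative Slc8b1, chosen after its values were seen, rose (138 ± 1.65 CPM in KO, 110 ± 6.24 CPM in WT, 0.32, adjusted p = 0.0123, lost without KO replicate 1 or WT replicate 1). Families with at least 1 gene that rose and 1 that fell numbered 8, among 29 families with any changed gene and 16 with none. The 8 include Slco, whose only gene that fell was Slco2b1, with a call that supports nothing.

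**Figure D4:**
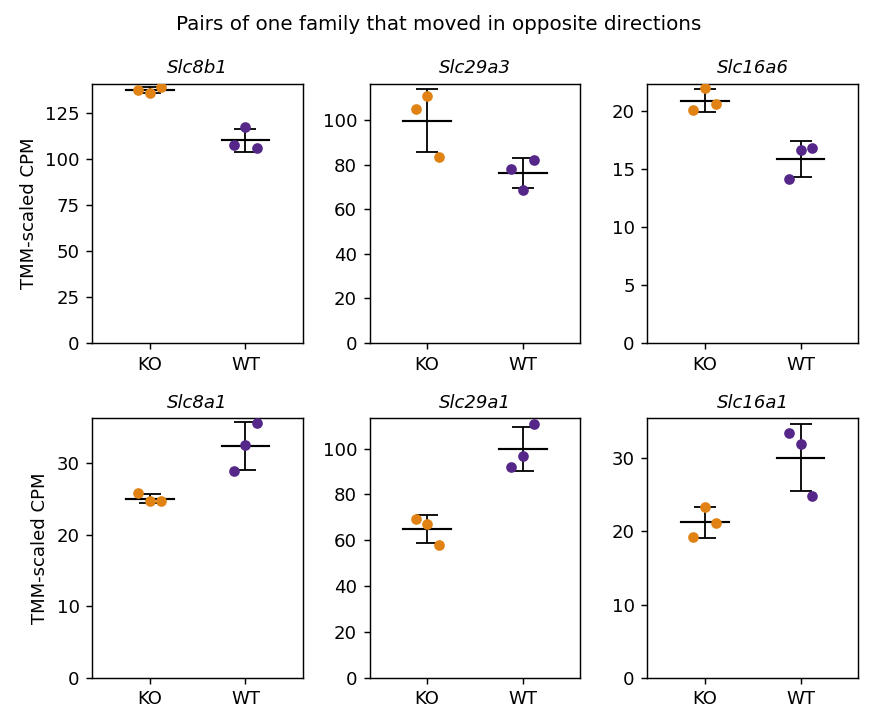
TMM-scaled CPM in each library of 6 genes, KO on the left and WT on the right of each panel, with mean and SD. In the upper row the KO libraries lie above the WT libraries, and in the lower row, which holds a gene of the same family under each, they lie below them.

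Of 29 genes for amino acids and peptides, 7 rose and 2 fell, and the other 20 missed the threshold. That is 31% called, beside 19.4% of all tested genes, and it counts Slc15a2, whose call supports nothing. Family 6, whose members move taurine, creatine, glycine and betaine with sodium and chloride, had 4 genes. The taurine transporter gene Slc6a6, next to Slc11a1 the highest per kilobase among all solute carriers, had 1706, 1752 and 1540 CPM in KO and 1303, 1282 and 1457 CPM in WT (0.31, adjusted p = 0.024). WT replicate 3 came near KO replicate 3, and the call was lost in 4 of the 6 fits without 1 library. The creatine transporter gene Slc6a8 had 308, 308 and 319 CPM in KO and 258, 249 and 250 CPM in WT (0.31, adjusted p = 0.0108), and lost its call without KO replicate 1. The betaine carrier gene Slc6a12 was at 4.71 ± 0.498 CPM in KO and 3.59 ± 1.10 CPM in WT (adjusted p = 0.324). The glycine carrier gene Slc6a9 was at 1.64 ± 0.515 CPM in KO and 1.86 ± 0.313 CPM in WT (adjusted p = 0.732). Slc6a9 is uncertain, as 27.8% of its exon bases overlap Ccdc24 on the other strand, which had 5 reads in all.

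Slc36a4, a proton-coupled amino acid carrier gene, rose to 81.7 ± 10.2 CPM in KO, against 58.9 ± 1.55 CPM in WT (SD, n = 3 each, 0.47, adjusted p = 0.00534). Slc7a7, which exports arginine and lysine in exchange for neutral amino acids as a light chain on the protein of Slc3a2, fell, with 19.7, 22.2 and 17 CPM in KO and 31.5, 28.1 and 33.3 CPM in WT (-0.66, adjusted p = 0.00243). Its partner Slc3a2, chosen after its values were seen, stood at 316 CPM in KO and 315 CPM in WT (0.01, adjusted p = 0.959). Slc43a3, a purine base transporter gene of a family otherwise known for amino acids, fell, with 14.5, 14.7 and 7.87 CPM in KO and 23.8, 19.4 and 27.5 CPM in WT (-0.94, adjusted p = 0.0102). KO replicate 3 was the lowest of its group by a wide margin, and the gene remained past the threshold without it. Slc7a11, the cystine-glutamate exchanger gene chosen after its values were seen, rose (0.41, adjusted p = 0.0372, lost in 4 of the 6 fits without 1 library). None of the 6 genes of family 38, sodium-coupled glutamine and neutral amino acid carriers, passed the edgeR test with all libraries (3 had an unadjusted p under 0.05, and DESeq2 called 1, Slc38a1). Without WT replicate 3 edgeR called Slc38a1 and Slc38a7, and with a filter on the mean CPM it called Slc38a1. Slc38a1, chosen after its values were seen, was at 112 CPM in KO and 95.4 CPM in WT (edgeR adjusted p = 0.0568).

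Carriers of nucleotide sugars and acetyl-CoA in the Golgi and endoplasmic reticulum gave no calls with edgeR over all libraries. Of these 0 of 21 passed, beside 19.4% of all tested genes, with log2 fold changes from -0.24 to 0.26. At an unadjusted p under 0.05 there were 4, and DESeq2 called 0. Without WT replicate 3 edgeR called 1, Slc35c1, chosen after its values were seen. The most abundant per kilobase was Slc35a4, at 82.6 ± 6.59 CPM in KO and 92.5 ± 1.54 CPM in WT (adjusted p = 0.213). Of 5 vesicle and lysosome carriers of families 17 and 18 none passed, and the sialic acid exporter gene of the lysosome, Slc17a5, was at 77.3 ± 1.46 CPM in KO and 79.5 ± 3.22 CPM in WT (adjusted p = 0.774). Of 3 fatty acid transport genes of family 27 none passed. In both groups edgeR gave 0 unadjusted p under 0.05 and DESeq2 called 0. Slc27a1, the most abundant of them, was at 240 ± 10.3 CPM in KO and 269 ± 17.9 CPM in WT (adjusted p = 0.176). A p that misses the threshold does not show that these genes are alike in both genotypes.

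By level, the 10 most abundant genes made up 38.8% of the summed CPM per kilobase of all 191 and the top 20 made up 54.4%. Lengths here are all annotated exon bases of a gene. Summed CPM of all 191 genes was 14705, 14795 and 14002 in KO and 13628, 13571 and 14065 in WT, so the groups overlap. The share of amino acid and peptide carriers was 20.7%, 20.6% and 20.6% in KO and 17.9%, 18.4% and 18.7% in WT, with all KO libraries higher. Sugar and monocarboxylate carriers made up 6.91%, 6.78% and 7.01% in KO and 8.01%, 8.22% and 8.08% in WT. Mitochondrial carriers made up 21.6%, 21.7% and 22.1% in KO and 25.2%, 24.2% and 22.9% in WT, again without overlap. Shares of metal and heme carriers overlapped between the genotypes, at 24.5% to 25.6% in KO and 24.3% to 25.7% in WT. A share can rest largely on 1 abundant gene. Slc37a2, of the sugar group, had a mean of 63.2 CPM per kilobase in KO and 107 in WT. Slc6a6, of the amino acid group, had 197 in KO and 159 in WT, with a call lost in 4 of the 6 fits without 1 library. Slc25a5, of the mitochondrial group, had 118 in KO and 146 in WT and did not pass with all libraries. Of the 36 mitochondrial carriers 1 fell.

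**Figure D5:**
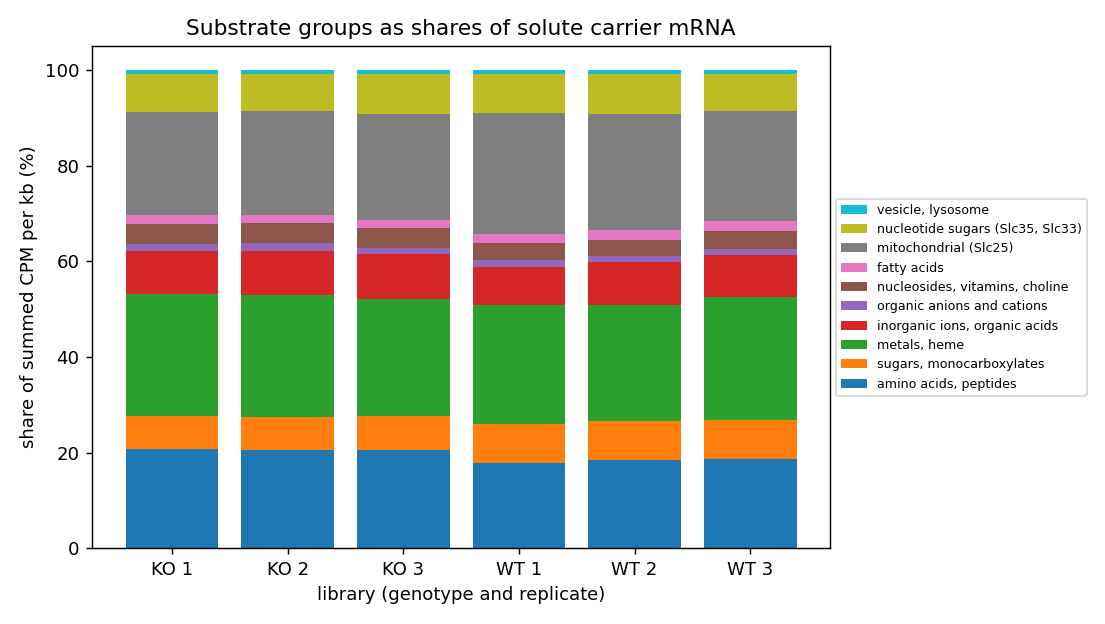
Stacked bars of the share of each substrate group in the summed CPM per kilobase of the 191 solute carrier genes, in 3 KO and 3 WT libraries. Amino acid and peptide carriers take 20.6% to 20.7% in the KO libraries and 17.9% to 18.7% in the WT libraries, and mitochondrial carriers 21.6% to 22.1% in KO and 22.9% to 25.2% in WT.

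The share of genes called was higher among more abundant genes. In the lowest level tier of the 191 genes (64 genes, 1.02 to 17.7 CPM), 14.1% were called, in the middle tier (63 genes) 27% and in the highest (64 genes, from 58.2 CPM) 29.7%. The 9 calls of the lowest tier include Slc15a2, Slc16a5 and Slco2b1, which entered through one genotype and support nothing, so its share is raised by them. Among all tested genes of the same level ranges the shares were 14.9%, 20.1% and 26.5%. The median SE was 0.179 in the lowest tier and 0.0872 in the highest, so small differences of low genes were not detectable at this depth. Just inside the level threshold lay Slc27a3, Slc16a5 and Slc9a3r2, whose third-highest libraries had 1.02, 1.33 and 1.40 CPM of the unscaled total. Just outside lay Slc6a4, Slc25a27 and Slc17a8, at 0.933, 0.933 and 0.869 CPM. Of the 194 genes left out by the level, 10 were tested and 1, the zinc transporter gene Slc39a12, passed, at 0.581, 0.436 and 0.597 CPM in KO and 2.18, 1.56 and 0.783 CPM in WT (adjusted p = 0.042).

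Transporters and partner genes outside the Slc symbols moved in both directions. Of all tested genes 19.4% were called, 9.77% higher and 9.61% lower in KO. The lists below were chosen with earlier results of these data known, so their counts are a description. Of 24 ABC transporter genes, which pump substrates with ATP, 8 rose, 3 fell and 13 missed the threshold (median log2 fold change 0.22). Abca1, a cholesterol exporter gene, was at 535 ± 17 CPM in KO and 277 ± 34.5 CPM in WT (0.95, adjusted p = 1.89e-05). Abca9 rose too (0.70, adjusted p = 0.000374). Abcg3 (-1.72, adjusted p = 1.4e-05) and the peroxisomal fatty acid transporter gene Abcd2 (-1.32, adjusted p = 1.44e-05) fell. So did Abcg1, chosen after its values were seen (312 CPM in KO, 410 CPM in WT, -0.39, edgeR adjusted p = 0.00291). Of 22 tested partners and regulators of carriers without an Slc symbol, 7 rose, 4 fell and 11 missed the threshold (median 0.11). The transferrin receptor gene Tfrc, which brings iron in, fell to 106 ± 3.34 CPM in KO, against 248 ± 7.60 CPM in WT (-1.23, adjusted p = 3.59e-07), while the iron exporter gene Slc40a1 rose. Cd36, a fatty acid uptake receptor gene, fell (-0.78, adjusted p = 8.3e-05), and Arrdc3 (0.86, adjusted p = 0.000153) and Txnip (0.52, adjusted p = 0.00134), arrestin-family genes, rose. Txnip is known to remove glucose transporters from the cell surface. Of 27 tested carriers with other names and related genes, 3 rose, 2 fell and 22 missed the threshold (median 0.06). Unc93b1, which brings nucleic acid-sensing Toll-like receptors to endosomes, rose (0.42, adjusted p = 0.00237), as did Mfsd12 (0.33, adjusted p = 0.0175). The mitochondrial carrier genes Ucp2 (-0.51, adjusted p = 0.00875) and Mtch2 (-0.34, adjusted p = 0.026) fell. That list also held Mfap3l, which is not a carrier and did not pass.

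The promoter windows of solute carrier genes were read for AGGTCA, the hexamer that receptors paired with retinoid X receptors bind as repeats. Windows reach from 250 bases before to 50 after an annotated start, are RefSeq sequence on GRCm38.p6 and were at hand for 144 of the 191 genes, at times with several overlapping windows per gene. AGGTCA or its reverse complement TGACCT stood in a window of 9 of 31 changed genes (29%) and 12 of 113 genes that did not pass (10.6%), beside 18.1% of 27025 genes with a window. Genes with more windows have more chances to hold the letters: changed genes had 50 windows and the others 148. By window the shares were 26% for changed genes, 8.11% for the others and 16.3% for all. No solute carrier window held a direct repeat of the hexamer spaced by 0 to 5 bases, and 0.0852% of all windows did. These counts are a description of letters and no test was made.

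Windows are shown for the 3 largest changes with a window and for 2 of the 4 genes that passed in every fit and hold the hexamer, 5′ to 3′ on the strand of the gene, with the hexamer or its reverse complement in capitals. Those 4 are Slc20a1, which rose, and Slc12a7, Slc29a1 and Slc7a7, which fell; of each direction the gene with the hexamer nearest to an annotated start is shown. Slco2b1 is at chr7:99711291-99711590 on the minus strand, Slc15a2 at chr16:36784913-36785212 on the minus strand and Slc2a6 at chr2:27027949-27028248 on the minus strand. Slc12a7 is at chr13:73763410-73763709 and Slc20a1 at chr2:129198523-129198822, both on the plus strand. The first base of the hexamer lies at -5 from the start used for the printed window of Slc12a7, and at -42 from a second annotated start. In Slc20a1 it lies at -26 from the start of the printed window, and the window of another start holds a hexamer at -75. The first 3 printed windows do not hold these letters.
Slco2b1: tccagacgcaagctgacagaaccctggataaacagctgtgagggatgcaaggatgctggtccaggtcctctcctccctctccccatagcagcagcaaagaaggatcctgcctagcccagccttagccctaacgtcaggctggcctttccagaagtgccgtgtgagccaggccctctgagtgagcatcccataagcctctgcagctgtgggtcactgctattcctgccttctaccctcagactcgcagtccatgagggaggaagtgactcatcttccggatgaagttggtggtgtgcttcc
Slc15a2: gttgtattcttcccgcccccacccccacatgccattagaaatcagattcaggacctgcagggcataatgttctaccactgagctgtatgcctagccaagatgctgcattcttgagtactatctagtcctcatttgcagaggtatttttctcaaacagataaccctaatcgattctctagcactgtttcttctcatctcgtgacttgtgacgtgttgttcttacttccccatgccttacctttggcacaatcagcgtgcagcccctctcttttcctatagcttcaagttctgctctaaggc
Slc2a6: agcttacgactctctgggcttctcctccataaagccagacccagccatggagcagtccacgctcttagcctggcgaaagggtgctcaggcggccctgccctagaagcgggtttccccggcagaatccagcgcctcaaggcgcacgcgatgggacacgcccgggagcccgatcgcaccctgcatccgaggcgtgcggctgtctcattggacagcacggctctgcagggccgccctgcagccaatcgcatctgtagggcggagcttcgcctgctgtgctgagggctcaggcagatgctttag
Slc12a7: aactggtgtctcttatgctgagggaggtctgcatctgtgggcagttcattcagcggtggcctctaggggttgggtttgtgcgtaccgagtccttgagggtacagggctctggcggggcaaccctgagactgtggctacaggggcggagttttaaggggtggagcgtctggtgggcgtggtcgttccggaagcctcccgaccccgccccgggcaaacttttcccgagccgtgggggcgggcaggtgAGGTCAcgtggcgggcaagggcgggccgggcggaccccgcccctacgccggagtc
Slc20a1: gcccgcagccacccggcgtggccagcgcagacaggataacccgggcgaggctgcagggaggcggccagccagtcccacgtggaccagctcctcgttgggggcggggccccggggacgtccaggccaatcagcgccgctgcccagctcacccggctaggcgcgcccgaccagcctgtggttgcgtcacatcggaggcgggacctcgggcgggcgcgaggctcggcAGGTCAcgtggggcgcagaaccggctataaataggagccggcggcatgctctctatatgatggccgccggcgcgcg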

How the data were processed

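Libraries of 3 RXRab KO and 3 WT macrophage cultures were compared. The authors deposited raw counts per Ensembl gene and a table of normalized log2 values. TopHat2 2.0.7, DESeq and the build mm10 (GRCm38) are named per the submitters' processing notes. The sources used here do not give the counting program, the annotation or the strand setting, so reads of overlapping or near-identical genes can be misplaced. Of 45193 Ensembl identifiers, 45106 had a symbol. Positions, exon lengths and overlaps came from GENCODE M21, and shared sequence was counted as 75-base stretches of the longest transcript found in transcripts of other genes.

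Counts were tested with edgeR 4.0.16 in R 4.3.3 (robust quasi-likelihood F test, TMM factors, filterByExpr with minimum count 10 and minimum total 15, genotype alone) and p-values were adjusted by Benjamini-Hochberg over 12011 genes. The script was tested on simulated data. Levels are TMM-scaled CPM, and the SE comes from the F statistic (fold change on the log2 scale over √F, sign dropped). The 7880320 to 25091019 counts per library set the precision. Alternatives were other normalization factors and filters, DESeq2 1.42.0, limma 3.58.1 on the authors' log2 values as log2(linear value + 1), thinning to the smallest library, a block for the replicate number, and omission of each library in turn. The genes and lists were chosen with earlier results of these data known. Substrate groups follow family numbers. Genes were named if changed at least 2-fold, if among the 3 smallest adjusted p in a direction of a group, if the most abundant per kilobase of a group, if next to the level threshold, or if in a family of at least 4 genes of which at least 50% changed. For the lists of other transporters the rule took the 2 smallest adjusted p in each direction. Cell type marker lists are given by summed levels. Values of 1 gene that the naming rule took are not reported here.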

Additional observations from a re-analysis of the deposited data

How the results depend on the processing

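Of the 42 genes that changed among the 188 reaching 1 CPM in both genotypes, 20 passed in all 15 alternatives, among them Slc2a6, Slc40a1, Slc23a2, Slc37a2 and Slc13a3, and 22 lost the call with at least 1 library left out. Slc30a9 lost it with any library left out. With RLE or upper-quartile factors the same 42 passed. The count was 43 with a CPM filter or with no filter, 44 of 187 with thinned counts (40 shared), 42 with limma on the authors' log2 values, 39 with DESeq2 (38 shared) and 44 with a filter on the mean CPM, an alternative chosen after seeing the data. Over all 191 genes, in which 45 changed, leaving out 1 library gave 25 to 42 changed, 16 to 30 that rose and 9 to 12 that fell, and 1286 to 2607 changed among all genes. The lowest counts came without KO replicate 1 (25 changed, 16 rose, 9 fell, 1383 of all genes) and without WT replicate 1 (29 changed, 17 rose, 1286 of all genes), and 20 rose without KO replicate 2. The numbers did not pair the samples (correlations of deviations 0.0528, -0.275 and -0.259 for replicates 1, 2 and 3). With the replicate block 26 solute carriers changed, 17 that rose and 9 that fell, and 1375 of all genes. Signs turned for genes that never passed: Slc17a8 without KO replicate 3 (-0.33) or WT replicate 2 (-0.14), Slc9a3r2 without KO replicate 3 (-0.21), Slc25a27 without KO replicate 2 (-0.20) or WT replicate 2 (-0.14), and Slc6a9 without KO replicate 3 (0.0286). With 1 library left out these genes ranged from -0.33 to 0.35 (Slc17a8), -0.21 to 0.31 (Slc9a3r2), -0.20 to 0.46 (Slc25a27) and -0.43 to 0.0286 (Slc6a9). The cause was not tested.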

Other observations

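Of the 9 antisense and pseudogene symbols left out by the choice of genes, 2 had enough reads for the test and neither passed. Slc7a6os had 449, 598 and 566 reads in KO and 297, 233 and 373 reads in WT (log2 fold change -0.08, edgeR adjusted p = 0.719). Slc2a4rg-ps had 45, 66 and 72 reads in KO and 16, 22 and 56 reads in WT (0.12, adjusted p = 0.832). The other 7 had at most 4 reads in any library.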
